A study of Penicillium oxalicum with 6 samples.

Results

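Penicillium oxalicum is a mould known for its plant cell wall degrading enzymes. Of its 9834 genes, 45 were expressed in mycelium of MuPOX05503, a strain mutated in POX05503, and had little RNA in the Ku70 mutant. Reads were still present in every Ku70 library for 35 of them. The 45 genes were chosen by their FPKM values (reads scaled to gene length and to the depth of the library), which had to average at least 5 over the 3 MuPOX05503 libraries and under 1 over the 3 Ku70 libraries. Both thresholds were met by 49 genes, of which 4 were left out because they lay in stretches of 4 or more consecutively numbered genes with R of at least 1, where R is log2((mean FPKM in MuPOX05503 + 1) / (mean FPKM in Ku70 + 1)). Since the strain contrast chose these genes, their difference between strains is described here and carries no test.

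The 6 libraries were made from total RNA of mycelium shaken for 24 h in medium with 1% Avicel, a microcrystalline cellulose, with 3 libraries of MuPOX05503, a strain mutated in POX05503, and 3 of Ku70, a strain mutated in Ku70, which takes part in non-homologous end joining. The series studies protein kinases in relation to cellulase and xylanase genes. The labels name Ku70 mutant spores in the growth protocol of all libraries and do not say whether MuPOX05503 carries the Ku70 mutation too, nor how many clones were used or whether the 3 libraries of a strain came from separate cultures, so the spread given here may be technical. Total expected counts lay between 13653016 and 13843879 in MuPOX05503 and between 13936581 and 14263916 in Ku70 libraries. POX05503 itself had 0 counts in all 3 MuPOX05503 libraries, against 24.3 ± 1.54 FPKM in Ku70 (SD, n = 3), which is at least 499.8-fold lower in MuPOX05503 taking 3 counts over the mutant libraries as the floor.

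Filamentous fungi keep many genes off under any single growth condition, among them genes for secondary metabolites, for the use of other nutrients and for sporulation, and switch them on through transcription factors and chromatin state. Protein kinases act upstream of such switches by adding phosphate groups to other proteins, including transcription factors and other kinases. Low RNA in a whole mycelium can come from all hyphae at a low level or from a few cells at a higher one, and these cannot be told apart here. The identifiers are not paired with gene names or products in the sources used here, so the 45 genes are described by identifier, level, length and numbering, and no function is given to any of them.

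Reaching 5 FPKM in the mutant was uncommon among genes with little RNA in Ku70. Of the 1149 genes with a mean under 1 FPKM in Ku70, 4.26% averaged at least 5 FPKM in MuPOX05503. Another 170 averaged between 1 and 5 FPKM there. The other 930 genes, or 80.9%, stayed under 1 FPKM in both strains. The median of the 1149 genes was 0.277 FPKM in MuPOX05503 and 0.233 FPKM in Ku70. In the opposite direction, 40 of the 1162 genes under 1 FPKM in MuPOX05503, or 3.44%, averaged at least 5 FPKM in Ku70.

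**Figure D1:**
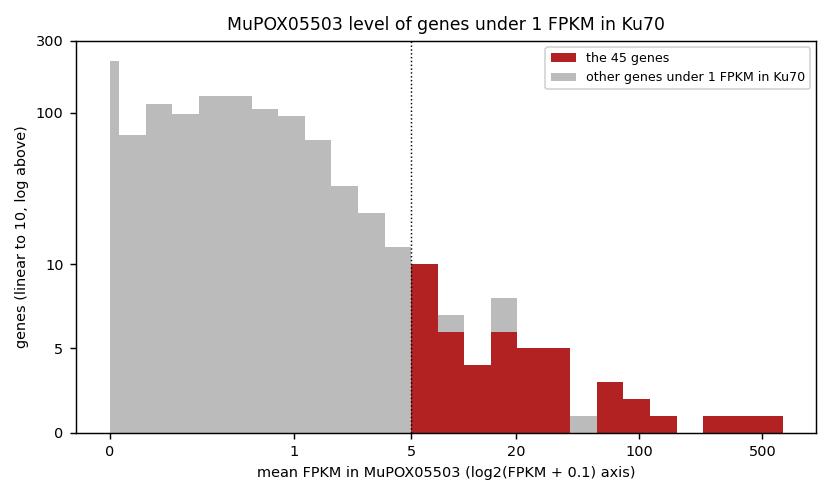
Mean FPKM in MuPOX05503 (x axis, log2(FPKM + 0.1)) of the 1149 genes under 1 FPKM in Ku70, as numbers of genes per bin (y axis, linear to 10 and logarithmic above); red bars are the 45 genes, and grey bars are the others, including the 4 left out for their numbering. Most genes lie left of the dotted line at 5 FPKM, and the red bars thin out toward 623 FPKM.

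The genes spanned a wide range of levels in the mutant. Their mean FPKM in MuPOX05503 ran from 5.07 to 623, with a median of 16.7. At least 100 FPKM was reached by 4 genes, 16 lay between 20 and 100 FPKM, 9 between 10 and 20, and 16 between 5 and 10. Set against the 8672 genes with at least 1 FPKM in MuPOX05503, whose median was 29.0 FPKM, 14 of the 45 were above that median. Together they took 0.171 ± 0.0119% of all counts in MuPOX05503 and 0.00261 ± 0.000298% in Ku70 (SD, n = 3 each). Of their counts in the mutant libraries, 38.2 to 40.8% fell on 3 genes, POX09367, POX06287 and POX00960.

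All 45 genes passed the low-value filter of the fit across 8801 genes, and did so through the MuPOX05503 libraries, where the rule required them to be high. In that fit (edgeR's quasi-likelihood test, Benjamini-Hochberg adjustment) 45 of 45 had an adjusted p under 0.05 and at least a 2-fold higher level in MuPOX05503. Over all tested genes, 31.9% were called higher, and 11.5% were called higher with at least a 2-fold change. In FPKM, the lowest MuPOX05503 library lay above the highest Ku70 library in 45 of 45 genes, and in 41.6% of all tested genes. Nothing is read from these counts, as the same contrast chose the genes. The fitted log2 fold change had a median of 5.62 in the 45 genes, also with POX08755, which had no Ku70 counts, set to its lower bound, and of 0.01 in all tested genes, and its lowest value among the 45 was 2.28, in POX05489.

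**Figure D2:**
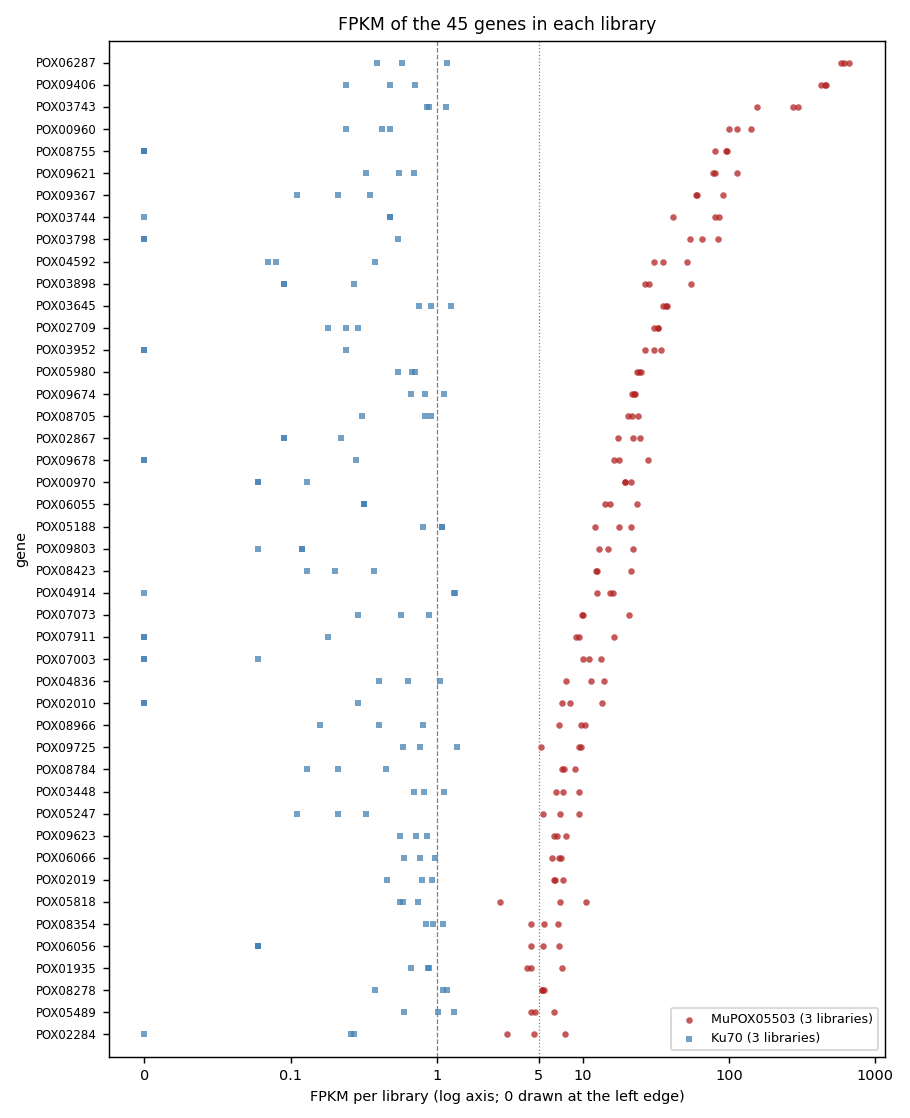
FPKM of the 45 genes (rows, by mean level in MuPOX05503) in each of the 3 MuPOX05503 libraries (red circles) and the 3 Ku70 libraries (blue squares), on a logarithmic axis with 0 drawn at the left edge. The dotted line marks 5 FPKM and the dashed line 1 FPKM; the strains do not overlap in any row, and the gap is narrowest toward the bottom.

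The highest level belonged to POX06287, with 615, 668 and 587 FPKM in the MuPOX05503 libraries, against 0.58, 0.39 and 1.18 FPKM in the Ku70 libraries. It ranked 275th of all genes by mean FPKM in the mutant, although its Ku70 counts were only 3, 2 and 6 reads. POX09406 followed with 428, 452 and 460 FPKM in MuPOX05503 and 0.71, 0.48 and 0.24 FPKM in Ku70. For both genes the 3 mutant libraries lay close together, with coefficients of variation of 6.56% for POX06287 and 3.74% for POX09406. Their fitted log2 fold changes were 9.61 (SE 0.20) and 9.66 (SE 0.18).

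POX03743 was less even. It had 156, 274 and 297 FPKM in MuPOX05503 and 0.86, 1.16 and 0.88 FPKM in Ku70, so that replicate 1 of the mutant stood well below the other two. POX00960 had 99.9, 142 and 114 FPKM in MuPOX05503, against 0.42, 0.24 and 0.48 FPKM in Ku70 (fitted log2 fold change 8.16, SE 0.24). POX09621 had 113, 77.4 and 80.8 FPKM in MuPOX05503, against 0.70, 0.55 and 0.33 FPKM in Ku70 (fitted log2 fold change 7.29, SE 0.24). In POX09621 replicate 1 was the high library, the reverse of POX03743.

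Truly silent in the Ku70 mutant, as far as the depth shows, was only POX08755. It had 461, 454 and 381 counts in the MuPOX05503 libraries (96.4, 96.3 and 80.4 FPKM) and 0 counts in each Ku70 library. With a floor of 3 counts over the Ku70 group it was at least 443-fold higher in MuPOX05503 by library totals. It was also the only gene to reach 5 FPKM in the mutant among the 217 genes with 0 counts in all Ku70 libraries. Of those 217 genes, 11 reached 1 FPKM in MuPOX05503, and the highest after POX08755 stood at 2.23 FPKM.

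The other 44 genes had at least 1 read in Ku70, so the word silent fits them only as a level under 1 FPKM. Over the 3 Ku70 libraries, 9 genes had 1 to 3 counts, 11 had 4 to 10, 10 had 11 to 30, and 14 had more than 30. Reads were present in every Ku70 library for 35 genes. The highest count in a Ku70 library was 56, in POX08278. For comparison, 217 of the 1149 genes under 1 FPKM in Ku70 had 0 counts in all Ku70 libraries. POX05503, the gene mutated in MuPOX05503, had 0 counts in each mutant library. In the mutant the counts ran from 11 to 4809 per library. At 12 genes a Ku70 library exceeded 1 FPKM, although the mean stayed below it, and the highest such value was 1.37 FPKM, in POX09725.

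For genes with 1 to 3 Ku70 counts the fold is known only loosely. POX07003 had 242, 177 and 196 counts in MuPOX05503 and 0, 0 and 1 in Ku70. The ratio of its summed counts by library totals was 631, with an exact 95% interval from 113 to 24958 that covers counting error only. POX03952 had 112, 142 and 128 counts in MuPOX05503 and 0, 1 and 0 in Ku70, a ratio of 392 with an interval from 69.9 to 15517. POX03798, at 84.1, 54.3 and 65.6 FPKM in the mutant libraries, had 0, 0 and 2 counts in Ku70, and its ratio of 381 had an interval from 105 to 3148. The 3 intervals overlap, so the order of the ratios is not resolved at this depth.

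At the other end stood genes close to the thresholds. Just inside the Ku70 ceiling were POX05188, at 17.0 ± 4.54 FPKM in MuPOX05503 and 0.990 ± 0.165 FPKM in Ku70, and POX03645, at 36.7 ± 1.27 FPKM in MuPOX05503 and 0.980 ± 0.255 FPKM in Ku70 (SD, n = 3 each, here and below). Just outside it were POX03593, at 8.18 ± 1.07 FPKM in MuPOX05503 and 1.04 ± 0.197 FPKM in Ku70, and POX08288, at 36.6 ± 3.55 FPKM in MuPOX05503 and 1.06 ± 0.0513 FPKM in Ku70. Just inside the mutant floor were POX02284, at 5.07 ± 2.31 FPKM in MuPOX05503 and 0.177 ± 0.153 FPKM in Ku70, and POX05489, at 5.17 ± 1.06 FPKM in MuPOX05503 and 0.977 ± 0.357 FPKM in Ku70. Just outside it were POX00066, at 4.96 ± 0.380 FPKM in MuPOX05503 and 0.613 ± 0.416 FPKM in Ku70, and POX09622, at 4.63 ± 0.607 FPKM in MuPOX05503 and 0.457 ± 0.242 FPKM in Ku70. The distance to the threshold was smaller than the SD in each of these 8 cases except POX08288, where the Ku70 mean exceeded 1 FPKM by slightly more than its SD. The least separated of the 45 was POX05489, whose lowest MuPOX05503 library was 3.39 times its highest Ku70 library.

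The rule was also applied to 4 libraries, with 1 library of each strain left out, and the left-out libraries were then read. They did not enter that choice of genes, but the rule itself was set with earlier results of these data known. The 9 combinations also reuse the same libraries, so they give no independent support. Over the 9 combinations, 39 to 45 genes were chosen. The left-out MuPOX05503 library was at 5 FPKM or more in 37 to 43 of them, and the left-out Ku70 library was under 1 FPKM in 33 to 37. The left-out MuPOX05503 library was above the left-out Ku70 library for every chosen gene in 8 combinations. In the ninth, the exception was POX00468, which is not among the 45. It had 1.06, 7.54 and 3.21 FPKM in MuPOX05503, against 2.07, 1.04 and 0 FPKM in Ku70. Over all tested genes, all 3 MuPOX05503 libraries lay above all 3 Ku70 libraries in 41.6%. The share for 1 library against 1, which cannot be lower, was not computed, so nothing is read from the counts of chosen genes.

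Agreement between the mutant libraries varied widely from gene to gene. The coefficient of variation over the 3 MuPOX05503 libraries had a median of 21.6% in the 45 genes, and it exceeded 20% in 25 of them, or 55.6%. Among the 7204 other tested genes in the same range of mutant FPKM the median was 8.54% and 11.0% exceeded 20%. Among the 800 of those that were called at least 2-fold higher, the median was 10.7% and 18.4% exceeded 20%. Counting error was also larger in the 45 genes, at a median coefficient of variation of 7.37% expected from the counts, against 3.90% in the 7204 genes and 3.17% in the 800. The difference in spread was not tested.

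**Figure D3:**
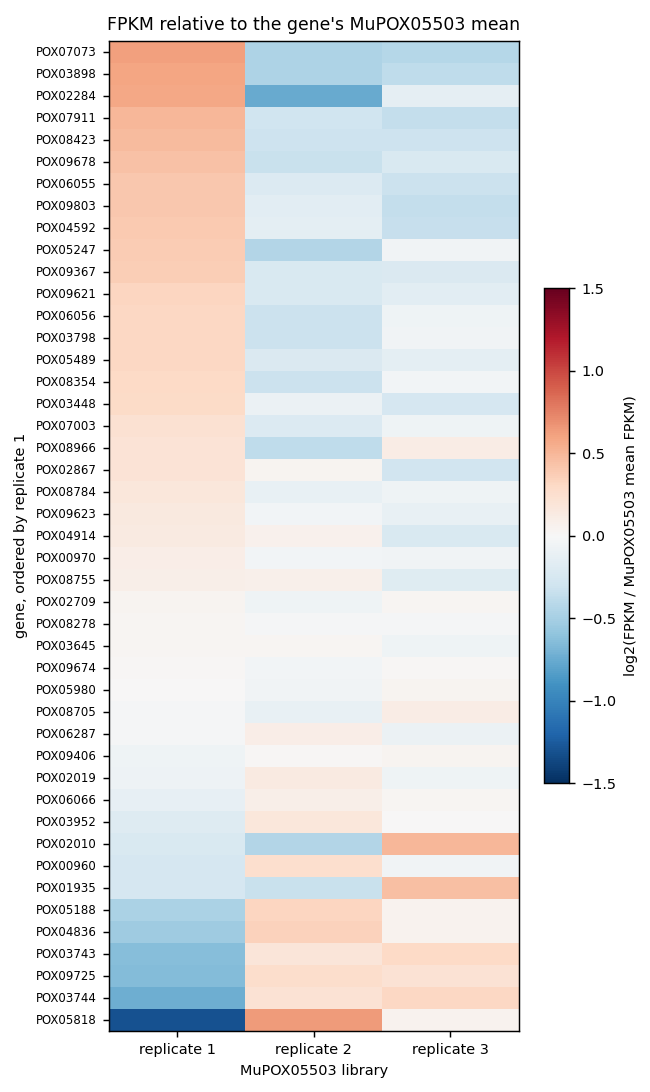
FPKM of the 45 genes in each MuPOX05503 library relative to the gene's own MuPOX05503 mean, as log2 ratios (colour), with genes ordered by replicate 1. Replicate 1 is the highest library at the top of the panel and the lowest at the bottom, with POX05818 the lowest of all.

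Replicate 1 of MuPOX05503 stood apart most often. It was the highest mutant library in 29 of the 45 genes, or 64.4%, against 47.7% of the 7204 genes in the same mutant FPKM range. It was more than 1.5 times both other mutant libraries in 8 genes, or 17.8%, against 1.03% of the 7204. It was below both by the same factor in 4 genes, or 8.89%, against 1.82% of the 7204. Among the 800 of the 7204 that were called at least 2-fold higher, it was highest in 49.6%. It was above both by that factor in 2.88% of the 800 and below both in 3.25%. The factor of 1.5 was not adjusted for counting error, and the median mutant count was 184 in the 45 genes and 658 in the 7204. Within the shared range the 7204 genes were not matched to the 45 in level. Without replicate 1 the rule chose 42 genes, 41 of them among the 45, and the 4 lost were POX02284, POX05489, POX06056 and POX08354. What set this library apart was not tested.

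Genes above the other libraries in replicate 1 included POX07073, with 20.9, 9.84 and 10.1 FPKM in MuPOX05503, against 0.57, 0.29 and 0.88 FPKM in Ku70. POX03898 showed the same shape at a higher level, with 55.4, 26.6 and 28.2 FPKM in MuPOX05503 and 0.09, 0.09 and 0.27 FPKM in Ku70. POX02284 had the fewest mutant counts, at 28, 11 and 17 in MuPOX05503 and 1, 0 and 1 in Ku70, a ratio of 28.7 by library totals with an exact 95% interval from 7.59 to 243. The others of this kind were POX06055, POX07911, POX08423, POX09367 and POX09678.

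The largest spread of all went the other way. POX05818 had 2.70, 10.5 and 6.94 FPKM in MuPOX05503, against 0.59, 0.75 and 0.56 FPKM in Ku70, a coefficient of variation of 58.0% among the mutant libraries. Its lowest mutant library remained above every Ku70 library, yet under the 5 FPKM that its mean reached. Without replicate 2 of MuPOX05503 its mean fell below that floor. POX03743, POX03744 and POX09725 were also below both other libraries in replicate 1.

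Other genes were nearly constant across the mutant libraries. POX08278 had the smallest spread, with 5.39, 5.22 and 5.22 FPKM in MuPOX05503, against 1.18, 0.38 and 1.10 FPKM in Ku70, where its libraries were less even. POX09674 had 22.7, 21.7 and 22.6 FPKM in MuPOX05503, against 0.67, 1.12 and 0.83 FPKM in Ku70. Its fitted log2 fold change was 4.55 (SE 0.17). Their coefficients of variation in the mutant were 1.86% and 2.25%.

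Several of the 45 genes had a short effective length, the only measure of length available here. The effective length implied by each pair of count and FPKM ran from 149 to 4672 bases, with a median of 1050 bases, against 1269 bases over the 8475 tested genes with enough counts. Under 400 bases lay 13 of the 45 genes, or 28.9%. The share was 9.36% among tested genes and 10.3% among the 934 other genes with a length that were called at least 2-fold higher. Of the 1104 other genes under 1 FPKM in Ku70, 509 had at least 5 counts in a library, and the share among these was 18.1%. At a given FPKM a shorter gene has fewer counts, so this minimum leaves out short genes first. The 18.1% may therefore be too low. FPKM divides by length, so length is not independent of the rule, and the difference was not tested.

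**Figure D4:**
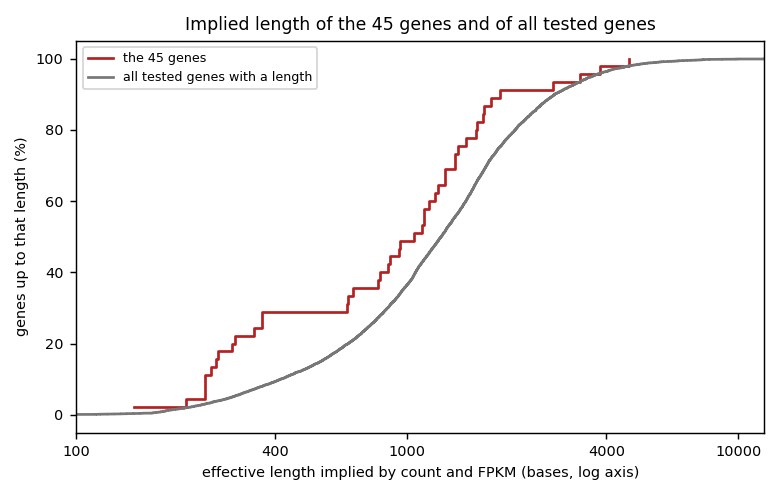
Share of genes (y axis, percent) with an implied effective length up to the value on the x axis (bases, logarithmic), for the 45 genes (red) and all tested genes with a length (grey). The red line lies above the grey one below 400 bases, at 28.9% against 9.36% there.

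Of the 9 genes with the highest mutant FPKM, 6 were under 400 bases in effective length. The median mutant level was 30.7 FPKM for the 13 short genes and 13.5 FPKM for the other 32. The shortest effective length was that of POX03744, at 149 bases, followed by POX04914 at 214 bases. POX04914 had 16.2, 15.4 and 12.6 FPKM in MuPOX05503 and 1.31, 1.33 and 0 FPKM in Ku70, which rested on 4, 4 and 0 Ku70 counts. At such lengths a handful of reads moves the Ku70 level across 1 FPKM.

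The 2 genes with the longest effective lengths differed in how even their libraries were. POX05980, at 4672 bases, had 1573, 1496 and 1599 counts in MuPOX05503 and 36, 45 and 46 in Ku70. Its level was 24.2 ± 0.743 FPKM in MuPOX05503 and 0.643 ± 0.0907 FPKM in Ku70, a fitted 34.8-fold difference (log2 fold change 5.12, SE 0.12). POX09367, at 3823 bases, had 4809, 3124 and 3164 counts in MuPOX05503 and 19, 6 and 11 in Ku70. Its level was 70.3 ± 17.8 FPKM in MuPOX05503 and 0.223 ± 0.121 FPKM in Ku70 (log2 fold change 8.17, SE 0.30). POX05980 had more reads in Ku70, and POX09367 the higher level in the mutant. Expected counts with a fraction, which arise when near-identical copies share reads, occurred in 0 of the 45 genes and in 381 genes of the whole table.

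Identifiers of the 45 genes were spread over the whole numbering, with 1 to 7 genes per 1000 numbers up to POX09000 and 8 in the last 834. Whether the numbers follow the chromosomes is not given in the sources used here. No gene next in number had R of 1 or more for 21 of the 45, while 14 lay in runs of 2 such genes and 10 in runs of 3. Longer runs were left out by the rule. The 4 genes left out for that reason were POX04577, POX06420, POX08078 and POX08656, named here for being so few; their mean levels were 9.57 to 56.3 FPKM in MuPOX05503 and 0.230 to 0.983 FPKM in Ku70.

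**Figure D5:**
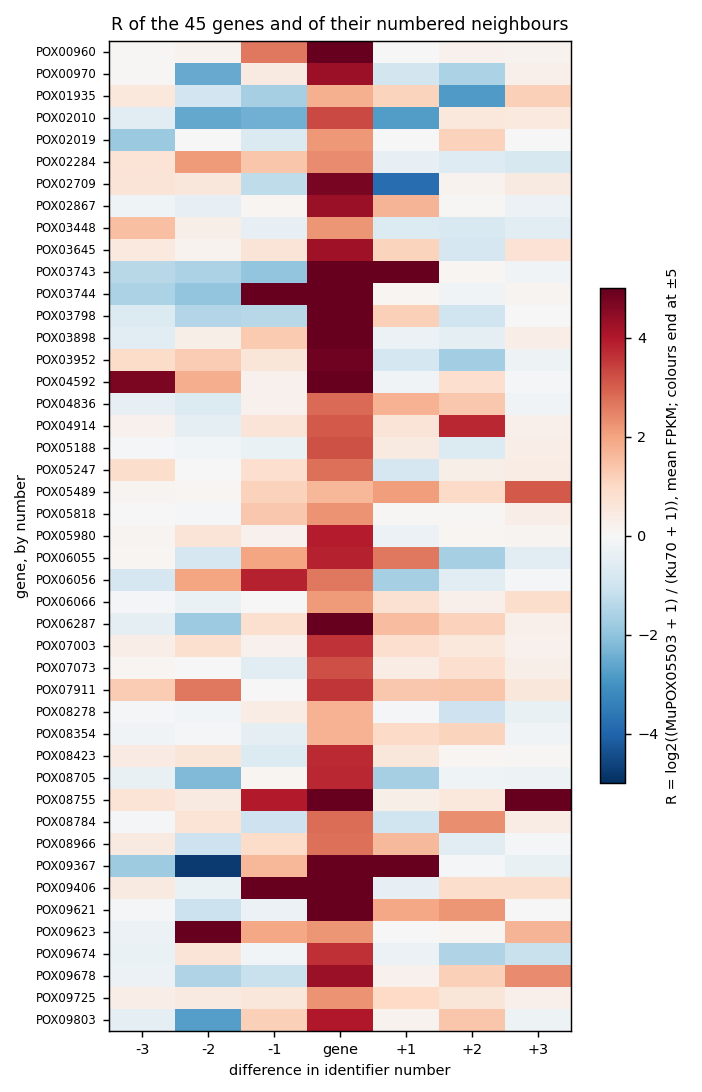
R of the 45 genes (middle column, rows by number) and of the genes up to 3 numbers before and after, where R is log2((mean FPKM in MuPOX05503 + 1) / (mean FPKM in Ku70 + 1)) and colours end at ±5. Most neighbours are pale, and a few next to a gene of the set are as dark as it is.

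The genes directly next in number moved in both directions. Of 74 tested neighbours outside the set, 34 were called higher in MuPOX05503, or 45.9%, and 22 of them, or 29.7% of the 74, with at least a 2-fold change. Over all tested genes these shares were 31.9% and 11.5%. Lower in MuPOX05503 were 26 neighbours, or 35.1%, where 32.6% of all tested genes were called lower. At a distance of 2 numbers 13 of 73, or 17.8%, were at least 2-fold higher, and at a distance of 3 numbers 9 of 75, or 12%. The rule restricts neighbours that are higher, since it left out long runs, so these shares are not independent of the choice.

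Consecutive numbers joined 4 of the 45 genes into 2 pairs. POX03744 had 41.7, 80.1 and 85.5 FPKM in MuPOX05503 and 0, 0.48 and 0.48 FPKM in Ku70. Its Ku70 level rested on 2 counts, and its ratio of 217 by library totals had an exact 95% interval from 59.8 to 1802. It thus followed the order of its neighbour POX03743 over the mutant libraries, with replicate 1 lowest in both. In the second pair, POX06055 had 23.6, 15.5 and 14.3 FPKM in MuPOX05503, against 0.32 FPKM in each Ku70 library. POX06056 had 6.85, 4.42 and 5.30 FPKM in MuPOX05503, against 0.06 FPKM in each Ku70 library. Replicate 1 was the highest mutant library for both, and neither overlapped between strains.

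Beside 3 genes of the set stood a neighbour with R of at least 3 that had too much RNA in Ku70 to belong. These neighbours were singled out by the same contrast after their values were seen, so their difference carries no test. POX09368, next to POX09367, had 587, 430 and 418 FPKM in MuPOX05503 and 3.07, 2.92 and 3.52 FPKM in Ku70. Its edgeR log2 fold change was 7.12 (SE 0.18). POX09405, next to POX09406, had 691, 891 and 752 FPKM in MuPOX05503 and 8.01, 7.52 and 15.8 FPKM in Ku70. Its edgeR log2 fold change was 6.11 (SE 0.23). POX08754, next to POX08755, had 75.3, 87.3 and 83.1 FPKM in MuPOX05503 and 3.46, 5.39 and 3.95 FPKM in Ku70. Its edgeR log2 fold change was 4.15 (SE 0.15). POX09368 exceeded POX09367 in FPKM in every library, and both were highest in replicate 1 of the mutant. POX08754 had a level like that of POX08755 in the mutant, and it had reads in Ku70, where POX08755 had none.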

How the data were processed

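The authors deposited 1 table per library with 2 values for each of 9834 genes. Per the file headers, these are expected counts, which are estimated and not normalized, and FPKM. The submitters' processing notes name RSEM 1.2.12, Bowtie2 2.1.0, BWA 0.7.10-r789 and DESeq2 without their roles. No source used here gives the genome build, the annotation or the strand setting, so reads of overlapping genes may be mixed. The RefSeq table (ASM172317v3) held 0 of the identifiers, so no names or sequences were used.

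Expected counts were rounded, and edgeR 4.0.16 (R 4.3.3) was run on them (TMM factors, quasi-likelihood test, strain as the only term, Benjamini-Hochberg adjustment over all genes tested, threshold 0.05), after checks on simulated data. The 8801 genes entered that had 1 FPKM or more in 3 or more libraries. SE is the log2 fold change over the square root of F. Effective length is the median, over libraries with 20 or more counts (5 for other genes under 1 FPKM in Ku70), of count over FPKM and library total. Intervals (exact binomial, 95%) and floors use counts summed over the libraries of a strain, so they leave out variation between libraries. PCR copies cannot be told from separate molecules, so even the counting error may be understated. Alternatives used limma 3.58.1, DESeq2 1.42.0, other scalings, filters and thresholds, a replicate block, and each library left out.

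The rule and its members were chosen with earlier results of these data known. Genes named are POX05503 and, among the 45, the 6 most abundant, those without Ku70 counts, the most and least variable, the longest and shortest, those at the thresholds and those with consecutive numbers. POX00468, POX03798, POX03898, POX03952, POX07003 and other genes outside this rule were picked after their values were seen. Lists by gene product need names and were not used.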

Additional observations from a re-analysis of the deposited data

How the results depend on the processing

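The number of genes depends on the thresholds. A Ku70 ceiling of 0.5 FPKM gave 24 genes and one of 2 FPKM gave 83, a mutant floor of 2.5 FPKM gave 75 and one of 10 FPKM gave 29, and asking every library to meet the thresholds gave 29. With no run left out there were 49, with runs of 3 or more left out 35, and with FPKM scaled by TMM factors 39. Leaving out each library gave 42 to 45 genes, of which 40 to 44 were among the 45. Without the most abundant gene the share of counts in MuPOX05503 was 0.148%. The 14 alternatives to the edgeR fit called 45 of 45 genes higher, which the choice of the genes on the same libraries settled beforehand and which says nothing about stability. The median fitted log2 fold change of the 45 was 5.38 to 5.76 under the edgeR and DESeq2 alternatives, 5.12 with limma on log2(FPKM + 0.1), and 3.64 with limma on log2(FPKM + 1), which by its pseudocount understates folds against near-zero levels. The direction of the 20 named members was unchanged under all 14 alternatives, which the choice of the genes also settled beforehand. Over all genes, 2507 to 3341 were called higher, and library totals moved the median gene to 0.12 on the log2 scale. With a replicate block by title letter 2729 genes were called higher. Deviations of libraries of the 2 strains correlated at -0.0226 to 0.0064 with the same letter and at -0.0549 to 0.0623 with different letters. The letters were therefore not taken to pair the libraries. For genes with few Ku70 reads, depth limits the fold to the bounds and intervals given.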
